A study of Rattus norvegicus with 4 samples.

Results

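Expression of 10 genes of mucus-secreting epithelium was followed in rat pancreas RNA: the trefoil factors Tff1, Tff2 and Tff3, the secretory pathway genes Agr2 and Spdef, the mucus components Muc2, Fcgbp and Spink4, and the peptide hormones Guca2a and Guca2b. They were found by gene symbol and made up 10 of the 26514 genes, and 13 of the 30367 gene probes, on the array. The set was put together with earlier results of these arrays known and was in part chosen by its measured ratios, those of Tff1, Tff3, Agr2 and Guca2a being among the lowest. The ratios of all 10 are therefore given as a description and carry no test.

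Weanling male Sprague-Dawley rats were fed an iron-deficient (FeD, 5 ppm iron), iron-adequate (FeA, 35 ppm) or iron-overloaded (FeO, 20275 ppm) diet for 3 weeks, and total RNA from the pancreases of 6 rats was pooled for each diet. The FeD pool was hybridized against the FeA pool on 2 two-color arrays with the dyes exchanged, and the FeO pool against the same FeA pool on another 2, so that each diet is 1 replicate and the spread between rats was not measured. The 4 arrays shared 1 slide and 1 scan. A ratio below 0 on the log2 scale means a lower signal in the FeD or FeO pool than in the FeA pool, and the distance between the 2 arrays of a comparison is technical spread only.

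Trefoil factors are small, disulfide-stabilized peptides that mucous cells of the stomach, intestine and other organs secrete along with mucins, and they take part in the repair of epithelia. Tff1 and Tff2 are best known from the stomach, Tff3 from intestinal goblet cells, and Tff2 is also a product of the pancreas. In goblet cells, Spdef drives maturation, Agr2 helps to fold the gel-forming mucin Muc2 in the endoplasmic reticulum, and Fcgbp and Spink4 leave the cell with the mucus.

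Across the 4 arrays the median spot signal was 115 to 222.5 per channel over a local background of 50 to 87, and 61.9% to 71.5% of gene spots were well above background. Markers of the labelled tissue were present, as the 22 acinar and the 17 islet genes of the marker lists that are on the array were each above background in at least 1 channel. In RNA of whole pancreas, fewer cells of a type and less RNA per cell cannot be told apart.

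Of the 10 members, 2 (Tff1 and Tff3) were lower in FeD than in FeA by a log2 ratio of 2 or more with the same sign on both arrays, a size that 0.0826% of the 15733 measured genes reached in that direction. At a log2 ratio of 1 or more there were 4 (Tff1, Tff3, Agr2 and Guca2a), beside 0.242% of all genes. In FeO, 9 of the 10 were measured on both arrays, and the same 4 genes were lower by 1 or more, beside 0.469% of 16433 genes, with Tff1 and Tff3 again past 2, beside 0.116%. No member was higher by log2 1 in either comparison. Below 0 on both arrays stood 9 of 10 members in FeD (all but Fcgbp) and 9 of 9 in FeO, beside 21.7% and 24.1% of all genes. Under median centring in place of loess, Tff2 and Spdef had a ratio above 0 on 1 of the 2 FeD arrays and Fcgbp on neither. Because the choice of members used these ratios, nothing is read from these shares.

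**Figure D1:**
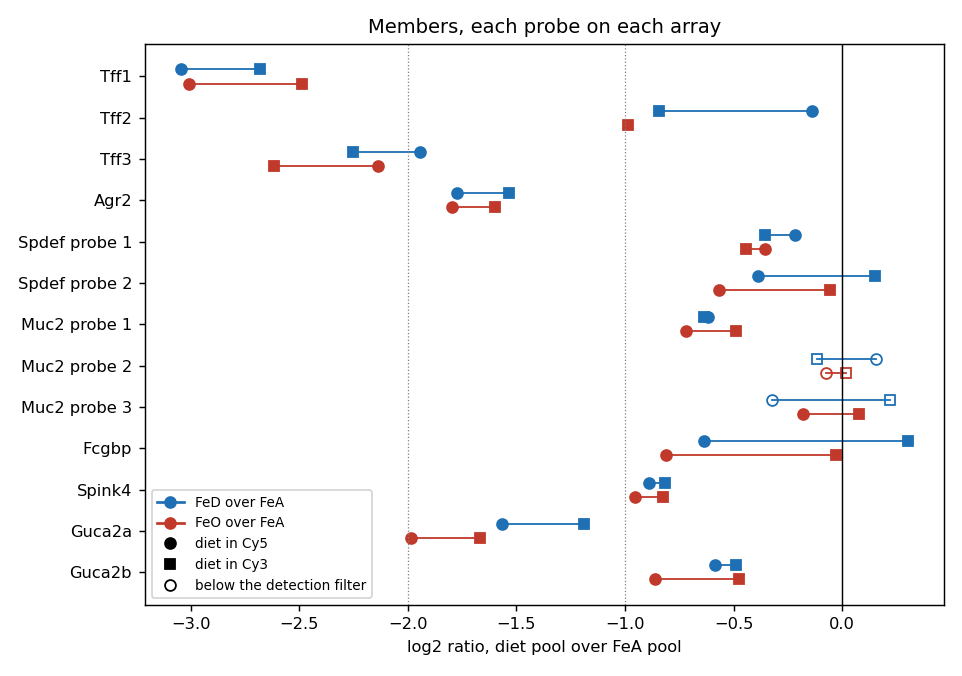
Log2 ratio of the diet pool over the FeA pool for each probe of the 10 genes, with FeD in blue and FeO in red, circles for the array with the diet pool in Cy5 and squares for the array with it in Cy3. Tff1, Tff3, Agr2 and Guca2a lie left of -1 on all 4 arrays, while Fcgbp, Spdef probe 2 and Muc2 probe 3 straddle or nearly reach 0.

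For the members past log2 1, the 150 bases before the transcription start are shown where RefSeq (build GRCr8) lists a promoter, because these are the stretches in which shared transcription factor motifs were looked for. They lie on the minus strand at chr20:9199334-9199483 for Tff3, on the plus strand at chr5:138522296-138522445 for Guca2a and on the plus strand at chr6:58435758-58435907 for Agr2. Capitals mark matches to the motifs named in the next paragraph.
Tff3: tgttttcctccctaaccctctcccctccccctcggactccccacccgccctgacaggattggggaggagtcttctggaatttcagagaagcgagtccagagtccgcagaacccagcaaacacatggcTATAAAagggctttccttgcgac
Guca2a: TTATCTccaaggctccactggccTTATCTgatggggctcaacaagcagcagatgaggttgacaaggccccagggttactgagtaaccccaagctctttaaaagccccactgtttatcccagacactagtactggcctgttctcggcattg
Agr2: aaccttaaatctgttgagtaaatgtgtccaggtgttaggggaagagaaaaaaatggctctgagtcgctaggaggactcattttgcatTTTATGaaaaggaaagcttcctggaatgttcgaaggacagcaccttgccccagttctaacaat

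Each motif was searched on both strands in the 250 bases before each start. The letters were TATAAA for the core promoter box, TGTTTAC for forkhead factors, AGATAA for zinc-finger factors of the Gata family, TTTATG for caudal-type homeobox factors, CAGCTG for basic helix-loop-helix factors and ACGTG for the core of the hypoxia response element. Promoters were read for 8 members, and no motif was found in more than 3 of them. The capitals in Tff3 are TATAAA, at bases -23 to -18 before the start, a motif found in 12.9% of the 33469 promoters and, among members, also in Muc2. Those in Guca2a are AGATAA on the opposite strand, present 2 times in the stretch shown, and found in 10.3% of promoters, with Muc2 and Spink4 as the other members. Those in Agr2 are TTTATG, found in 11.4% of promoters and in no other member. CAGCTG was found in Guca2a, further upstream, and in Muc2, beside 12% of promoters. TGTTTAC (3.21% of promoters) and ACGTG (16.6%) were in none of the 8. In Muc2, TATAAA and AGATAA overlap by 1 base. Tff3, Guca2a and Agr2 thus held 3 different motifs in the stretches shown.

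Tff1, a trefoil peptide of gastric surface mucous cells, had a normalized log2 signal of 6.81 and 7.03 in FeD, 6.78 and 7.14 in FeO, and between 9.63 and 9.86 in the 4 FeA channels. Both diets lay far below FeA, with no overlap, and were still above background on both arrays. The log2 ratio was -3.05 and -2.68 in FeD (mean -2.86) and -3.01 and -2.49 in FeO (mean -2.75). In spot signals before normalization, the FeD pool gave 209 in Cy5 and 100.5 in Cy3 over local backgrounds of 82.5 and 56.5, and the FeA pool on the same arrays gave 772 in Cy3 and 1049 in Cy5. Tff1 ranked 8th from the lowest of 15733 genes in FeD and 11th of 16433 in FeO.

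Tff3, the trefoil peptide of goblet cells, had a normalized log2 signal of 7.10 and 7.20 in FeD, while the FeO channels read 6.89 and 6.86. In FeA it ranged from 9.03 to 9.48, above all channels of both diets. Its log2 ratio was -1.95 and -2.25 in FeD (mean -2.10) and -2.14 and -2.62 in FeO (mean -2.38). It ranked 13th and 14th from the lowest in the respective comparisons.

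Tff2 stood apart from the other trefoil factors. Its spots were bright in every channel, with median signals from 73772 to 319337 and none of them saturated, and its ratios were smaller. The normalized log2 signal was 16.64 and 17.21 in FeD and 17.35 and 17.49 in FeA on the same arrays. The log2 ratio was -0.14 and -0.84, a distance of 0.71 that exceeds the mean of -0.49 in size, and under median centring in place of loess the array with FeD in Cy5 turned to 0.57 while the other went to -1.65. No direction is therefore given for Tff2 in FeD. In FeO, the spot on the array with FeO in Cy5 carried an outlier mark of the scanner software and was left out, and the remaining array gave -0.98. With the marked spot kept, the arrays gave -0.59 and -0.98.

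**Figure D2:**
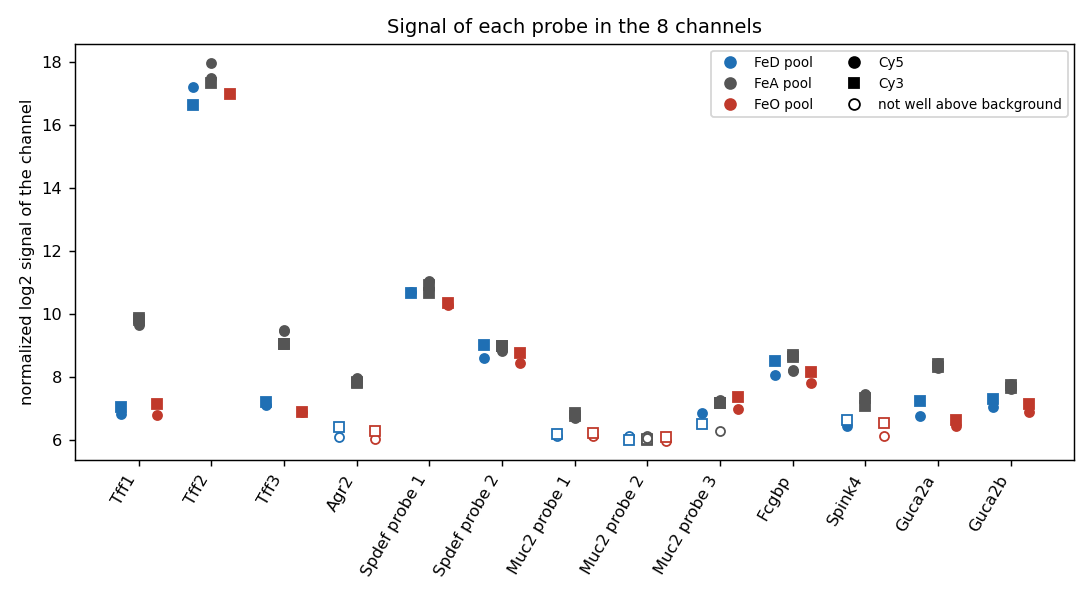
Normalized log2 signal of each probe in the 8 channels, by pool (FeD blue, FeA grey, FeO red) and dye (circles Cy5, squares Cy3), with open symbols for channels not well above background. Levels are compared between pools within 1 probe only. For Tff1, Tff3, Agr2 and Guca2a every FeD and FeO point lies below all FeA points.

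The 3 trefoil factor genes neighbor each other on chromosome 20 in the order Tff3, Tff2, Tff1 of the RefSeq annotation. The genes on either side showed no such ratios. Abcg1, a cholesterol exporter next to Tff3, had mean log2 ratios of 0.22 in FeD and 0.76 in FeO, and Tmprss3, a serine protease gene next to Tff1, had 0.15 and 0.02. Of the 8 nearest flanking genes, 6 were measured, with mean ratios in FeD between -0.06 and 0.22. Guca2a and Guca2b are likewise neighbors, on chromosome 5. The nearest measured gene beside them, Hivep3, had 0.25 in FeD and 0.05 in FeO. On the other side the nearest measured gene, Ppcs, had -0.35 in FeD and -0.38 in FeO. Its low values came from the arrays with the diet in Cy3 (-0.71 in each diet), the others being -0.0009 in FeD and -0.04 in FeO.

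**Figure D3:**
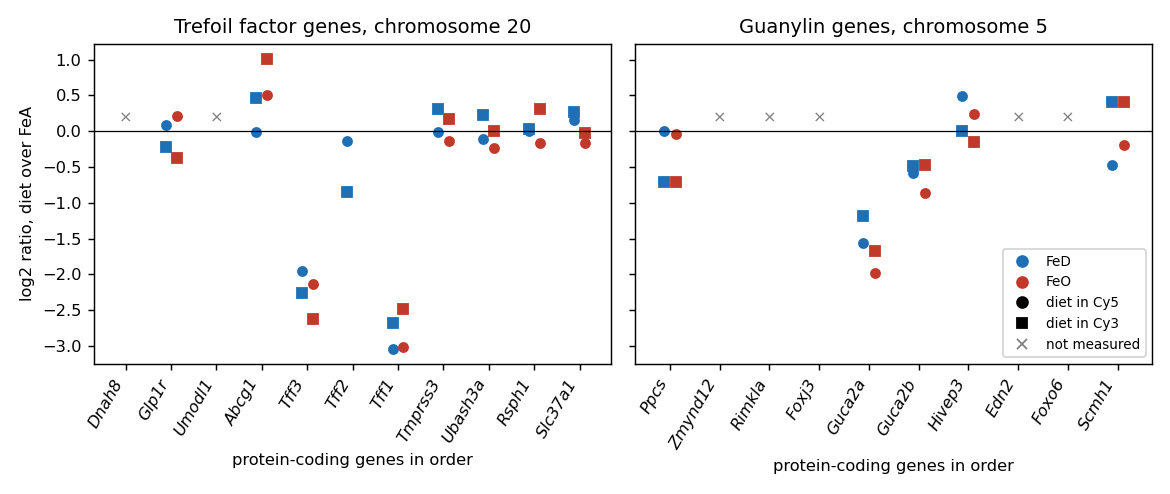
Log2 ratio over FeA of protein-coding genes in their order along the trefoil factor (left) and guanylin (right) loci, with FeD in blue, FeO in red, circles for the diet pool in Cy5, squares for Cy3 and a grey cross for genes not measured in either comparison. Tff3 and Tff1 lie near or below -2 with Tff2 between them above -1, and Abcg1 and Tmprss3 on either side lie at or above -0.14.

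Agr2, the mucin-folding disulfide isomerase, is covered by 1 probe with 10 spots on each array. It was well above background in all 4 FeA channels (7.80 to 7.94 on the normalized log2 scale) and in none of the FeD (6.07 and 6.41) or FeO channels (6.01 and 6.27). Where a pool is at background its level is known only as a limit, and the fold was then taken from the brighter pool against the lowest signal still counted as above background or the dim signal itself, whichever was higher. On this basis the FeA pool exceeded FeD by 3.14-fold and FeO by 3.24-fold for Agr2. Such folds are means over the 2 arrays under the reported processing and can be smaller under another. Without background subtraction the mean log2 ratio of Agr2 was -1.44 in FeD and -1.46 in FeO. The log2 ratios were -1.77 and -1.53 in FeD and -1.80 and -1.60 in FeO.

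Spdef, the transcription factor of goblet cell maturation, was measured by 2 probes and was above background in all channels. The first probe gave 10.70 and 10.67 in FeD, 10.29 and 10.33 in FeO, and 10.65 to 11.03 in FeA. FeD overlapped FeA and FeO lay below it. The log2 ratios were -0.22 and -0.35 in FeD and -0.36 and -0.44 in FeO. The second probe gave -0.39 and 0.15 in FeD and -0.57 and -0.05 in FeO, with opposite signs in FeD. The mean of both probes, -0.20 and -0.36, was small next to the ratios of Tff1, Tff3 and Agr2.

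Muc2, the gel-forming mucin of the intestine, was close to background on its 3 probes, which did not give the same picture. The first probe was above background in the 4 FeA channels (6.70 to 6.84) and in none of the FeD (6.12 and 6.19) or FeO channels (6.12 and 6.21). By the rule given for Agr2, FeA was 1.48-fold above FeD and 1.5-fold above FeO. Its log2 ratios were -0.62 and -0.63 in FeD and -0.72 and -0.49 in FeO. The second probe was above background in no channel. The third was above background in 1 of 2 FeD, 3 of 4 FeA and both FeO channels, with ratios of -0.32 and 0.22 in FeD and -0.18 and 0.08 in FeO, so that the pools overlapped.

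Fcgbp, a mucus protein that binds immunoglobulin G, had a log2 ratio of -0.64 with FeD in Cy5 and 0.30 with FeD in Cy3, so its sign followed the dye. In FeO the ratios were -0.81 and -0.03. The sign of the second of these turned to 0.06 with the processed signals of the scanner software. Spink4, a Kazal-type protease inhibitor made by goblet cells, was above background in all FeA channels (7.06 to 7.43), in 1 of 2 FeD channels (6.45 and 6.62) and in no FeO channel (6.11 and 6.53). All FeD and FeO values lay below all FeA values, while FeD and FeO overlapped. Its log2 ratios were -0.89 and -0.82 in FeD and -0.95 and -0.82 in FeO. By the rule given for Agr2, the FeA pool was 1.85-fold above FeO.

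The hormones guanylin (Guca2a) and uroguanylin (Guca2b) act on the receptor guanylate cyclase C, encoded by Gucy2c, to control salt and water secretion. Guca2a gave 6.74 and 7.24 in FeD, 6.42 and 6.61 in FeO, and 8.28 to 8.42 in FeA. It was above background in every channel, and the pools did not overlap. The log2 ratio was -1.56 and -1.19 in FeD (mean -1.38) and -1.99 and -1.67 in FeO (mean -1.83). Guca2b gave 7.04 and 7.28 in FeD, 6.86 and 7.14 in FeO, and 7.61 to 7.76 in FeA. FeD and FeO overlapped, and both lay below FeA. Its log2 ratio was -0.59 and -0.49 in FeD and -0.86 and -0.48 in FeO, a smaller difference than that of Guca2a on each of the 4 arrays. Gucy2c itself was above background in no channel.

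The members did not move by 1 common amount. The median log2 ratio of the measured members was -0.74 in FeD and -0.89 in FeO, beside 0.01 for all genes in both comparisons, and single members ranged from -2.86 (Tff1) to -0.17 (Fcgbp) in FeD and from -2.75 (Tff1) to -0.33 (Muc2) in FeO. The FeD and FeO ratios share the FeA pool, so the likeness of the 2 columns of values is not independent. Subtracting them on arrays of the same dye orientation removes FeA. The mean FeO minus FeD difference in log2 ratio was then 0.11 for Tff1, -0.28 for Tff3 and -0.45 for Guca2a (-0.42 and -0.48 on the 2 pairs of arrays). Of 16951 probes measured in both comparisons, the 5th and 95th percentiles were -0.35 and 0.36. Guca2a lay below this range, and Tff1, Tff3, Tff2 (on 1 pair of arrays), Guca2b, Fcgbp and both Spdef probes lay inside it. For Agr2, Muc2 and Spink4 no difference between FeO and FeD is given, since their signals in these pools were not above background on all arrays.

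**Figure D4:**
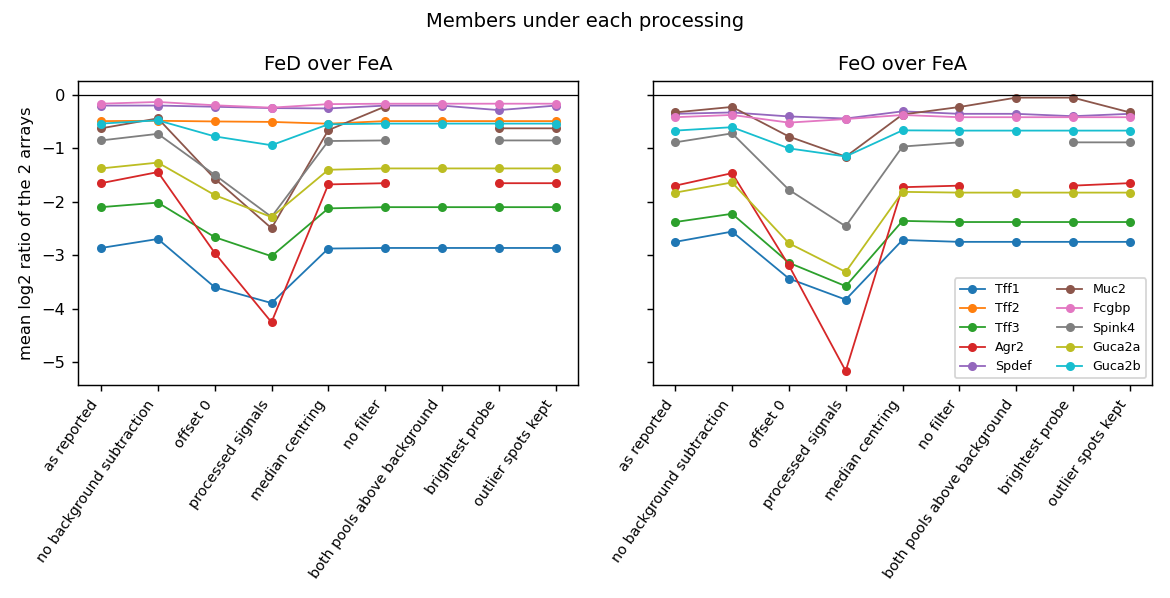
Mean log2 ratio over FeA of each member in FeD (left) and FeO (right) under 9 ways of processing, with gaps where a member was not measured. The order of Tff1, Tff3 and Guca2a from lowest to highest is kept in both panels, and Agr2 drops to -4.25 in FeD and -5.16 in FeO with the processed signals.

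The size of the ratio of the dimmer members depended on how background was handled. An offset of 50 was added to both channels, and with an offset of 0 the mean log2 ratio went from -1.65 to -2.96 for Agr2, from -0.63 to -1.57 for Muc2 and from -0.85 to -1.50 for Spink4 in FeD. Tff1 went from -2.86 to -3.60. The sign of these means stayed below 0.

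Other genes of the same pathways were taken from fixed lists. Of 9 further mucin genes on the array, 3 were measured in each comparison (Muc1, Muc13 and Emcn) and none was lower or higher by log2 1. The gastric mucin Muc5ac and also Muc5b, Muc15, Muc16, Muc19 and Muc20 were above background in no channel. Of 27 genes of goblet cell differentiation and secretion, 23 were measured, and 1 in FeD (Clca1) and 2 in FeO (Clca1 and Clca4) were lower by log2 1, with none higher. The median of this list was -0.12 in FeD and -0.05 in FeO. Clca1, a secreted goblet cell protein, had -1.08 and -0.93 in FeD and -1.15 and -1.07 in FeO. The regulators Atoh1 (mean 0.05 in FeD and -0.04 in FeO) and Foxa2 (-0.12 and -0.05) stayed near 0, as did Zg16, a lectin of mucus and zymogen granules (0.17 and -0.06). For each of these genes the 2 arrays had opposite signs. Other genes of the list were lower without reaching log2 1, among them Xbp1 (-0.54 and -0.65), Kcnk1 (-0.66 and -0.49) and Galnt3 (-0.52 and -0.44). The 2 arrays of Xbp1 were far apart, with -0.08 and -1.005 in FeD and -0.33 and -0.97 in FeO. In the other direction, the highest mean of the list was 0.17 in FeD and 0.49 in FeO. Mean ratios were below 0 for 16 of the 23 measured genes in FeD and 15 in FeO. Retnlb, Agr3 and Sytl2 were not above background on both arrays in any pool.

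Of 24 genes of mucin glycosylation on the array, 14 were measured in FeD and 15 in FeO, with medians of -0.02 and -0.06 and none past log2 1. Of 12 genes of guanylin signalling, 6 were measured in each comparison, with medians of 0.00 and -0.06 and none past log2 1. The chloride channel Cftr, a downstream target, had 0.20 and 0.29. Of 10 trefoil factor partners and receptors, 6 were measured, with medians of 0.12 and 0.27 and none past log2 1. Gkn1 and Gkn2, stomach proteins of which the latter pairs with Tff1, were above background in no channel.

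Marker lists of other epithelia and tissues were set beside the members. Of 26 absorptive enterocyte genes on the array, 22 were measured in FeD and 20 in FeO. In each comparison 7 of them (Alpi, Fabp1, Fabp2, Cdhr5, Krt20, Cdh17 and Lgals4) were lower by log2 1 or more and none was higher, with list medians of -0.60 and -0.71. The summed normalized signal of this list, over 22 probes, was 6726 to 6958 in FeD, 13690 to 13800 in FeA and 6146 to 6298 in FeO. Bright probes weigh most in such a sum. The sums of the mucin glycosylation, enteroendocrine and tuft cell, duct, islet and smooth muscle lists also lay below all FeA channels in both diets. For enteroendocrine and tuft cell genes the sum was 3968 to 4259 in FeD, 5040 to 6187 in FeA and 3079 to 3403 in FeO. The 2 probes of Alpi disagreed, with means of -2.41 and -0.34 in FeD. By the rule given for Agr2, Fabp2, the intestinal fatty acid binding protein, was higher in FeA by 6.77-fold against FeD and 6.32-fold against FeO. By quantitative PCR, however, the study could not detect Fabp1 or Fabp2 in the pancreases. Mep1a and Slc2a5 were above background in no channel, and Slc5a1 and Slc15a1, which take up glucose and peptides, were above background on both arrays in no pool. Vil1 (mean -0.19 in FeD and -0.13 in FeO) and Anpep (-0.21 and -0.08) had small ratios. The part of such RNA in the ratios of the members was not tested.

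Of 18 gastric epithelium genes on the array, 10 were measured in FeD and 12 in FeO, with medians of -0.11 and -0.12 and none past log2 1. Gkn1, Gkn2, Muc5ac, Pga5, Gif and Sox2 were above background in no channel. Among 11 Paneth cell genes, of which Defa5 was above background in no channel, the medians were -0.58 and -0.41, with Defa24 lower by log2 1 in both diets, Mmp7 higher in FeD and lower in FeO, and Pla2g2a higher in FeO. Of 16 enteroendocrine and tuft cell genes, Pyy was lower by log2 1 in FeO and none in FeD, and the medians were -0.20 and -0.10. Gip, Mln, Nts and Pou2f3 were above background in no channel, and Avil was not above it on both arrays in any pool.

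Medians of the pancreatic lists in FeD and FeO were -0.02 and -0.24 for duct genes and 0.15 and -0.28 for acinar genes, with none past log2 1, and -0.17 and -0.20 for islet genes, of which Ppy and Iapp were lower and Gcg higher by log2 1 in FeO. Mafa of the islet list was not above background on both arrays in any pool. In FeO only 15 acinar genes were measured, against 22 in FeD, since spots with outlier marks were left out. Lists of tissues around the pancreas differed between the diets. The lymphoid median was 0.61 in FeD and -0.46 in FeO, with Glycam1 higher in FeD and lower in FeO. The adipocyte median was -0.03 in FeD and 1.51 in FeO, with Adipoq, Fabp4, Cidec, Pparg, Cfd, Retn and Cd36 higher by log2 1 in FeO. The median of smooth muscle genes was -0.28 and -0.01, with Actg2 lower in FeD and Lmod1 above background in no channel. The islet median was below 0 in both diets, and the acinar and lymphoid medians differed in sign between the diets. Those of the duct (-0.02) and adipocyte lists (-0.03) in FeD lay close to the 0.01 of all genes. So did that of smooth muscle (-0.01) in FeO. No direction is read from such values. The part of these tissues in the ratios of the members was not tested.

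**Figure D5:**
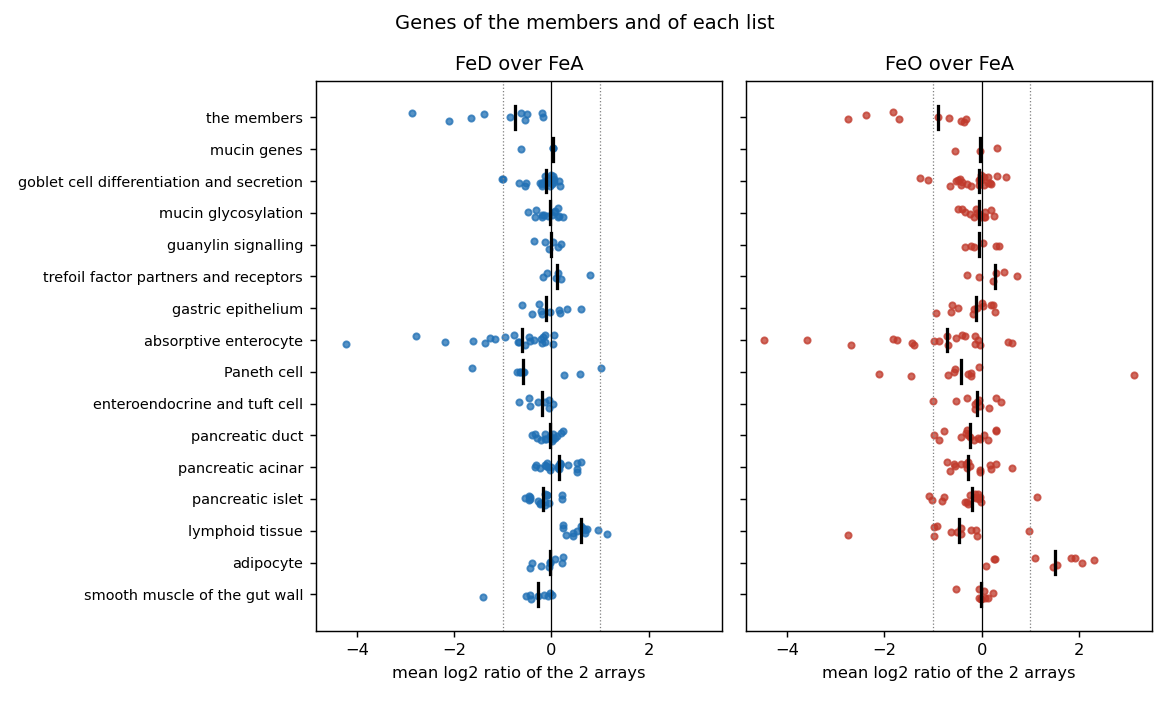
Mean log2 ratio over FeA of the members and of the genes of 15 lists (points, with the list median as a black bar) in FeD (left) and FeO (right), with dotted lines at -1 and 1. The members, in part chosen for low ratios, and the absorptive enterocyte genes have medians between -0.60 and -0.89 in both panels. The Paneth cell list has medians of -0.58 (FeD) and -0.41 (FeO).

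Genes whose ratios on the 4 arrays were nearest to those of Tff1, by Euclidean distance among 15259 genes measured in both comparisons, were Fabp2 (distance 0.22), Apoa1 (0.40), LOC691259 (0.67), LOC494499 (0.91) and LOC691352 (0.93). Apoa1, an apolipoprotein of intestine and liver, had -3.17 and -2.71 in FeD and -3.35 and -2.66 in FeO. The 2 probes of LOC691259 and the 2 of LOC691352 differed in size from each other. For Tff3 the nearest were Cdh17 (1.18), Agr2 (1.31), Fabp2 (1.35), Hsd17b2 (1.39) and Dusp6 (1.44), all farther away than the 5 nearest to Tff1. Agr2 was the only other member in either set. Fabp2 and Agr2 were above background in no FeD or FeO channel, and Apoa1, Cdh17 and Hsd17b2 in 1 FeD channel and no FeO channel. Ratios of these 5 genes are therefore in part limits that the offset compresses, and nothing is read from how near they lie. Fabp2 and Apoa1 were also below detection in the pancreases by the study's quantitative PCR.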

How the data were processed

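Two-color arrays of pooled rat pancreas RNA were analyzed. The deposited intensity values are uncorrected median signals of spots and of their local background, which the authors took from the scans with Agilent Feature Extraction 10.1.1.1. The log10 values, as deposited, are red over green ratios of the processed signals, not turned for the dye swap, and were used as an alternative. The authors' tables of fold changes, p-values and q-values were used for gene symbols only (75.6% of probes, the other 24.4% keeping the name in the array file).

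In R 4.3.3 with limma 3.58.1, background was corrected by normexp (offset 50), outlier spots (722 to 938 per array) were left out, and loess was applied within each array. Channel signals were scaled between arrays by Aquantile. Spots of a probe, probes of a gene and the 2 arrays were averaged, with the dye-swapped array turned. A gene was measured where a probe was well above background (over 50% of its spots) in 1 pool on both arrays. A dye swap of the same pools is 1 replicate, so no test of a diet was made. The array number limits the precision. Tables and figures were made in Python 3.11.15 (pandas 2.3.3, matplotlib 3.10.9, numpy 2.4.6), and the steps were tested on simulated data.

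The members and lists were chosen with earlier results of these data known. All members, list genes past log2 1 in either comparison, markers of other cell types not above background, and the 5 genes nearest to Tff1 and Tff3 are named. Foxa2, Atoh1, Zg16, Xbp1, Kcnk1, Galnt3, Muc1, Muc13, Emcn, Cftr, Vil1 and Anpep were named after their values were seen. Symbols were matched to RefSeq names and older names. A planned description of member proteins was not made, and probe sequences were not used here. Alternatives were other background corrections, median centring, other filters, the brightest probe, outlier spots kept, each array left out, and tests on the 2 arrays. A gene of the marker lists is not reported here.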

Additional observations from a re-analysis of the deposited data

How the results depend on the processing

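No member's mean ratio that passed log2 1 changed its sign under the alternatives run. Of 185 mean ratios of single members under an alternative, 184 kept the sign of the reported value, the exception being Fcgbp in FeD without replicate 1 (0.30), and 37 moved by more than the spread of the 2 arrays. The reported medians of -0.74 (FeD) and -0.89 (FeO) became -0.61 and -0.72 without background subtraction and -1.53 and -1.77 with an offset of 0. With processed signals they were -2.28 and -2.46. Over the members above background in both pools the medians were -0.54 and -0.67. These were 7 members in each comparison but not the same 7, since the FeD set held Tff2 and the FeO set Muc2. Members lower by log2 2 became 6 (FeD) and 5 (FeO) with processed signals and 4 in FeO with an offset of 0, and those lower by log2 1 in FeO became 7 with processed signals. The share of all genes past these sizes was not computed for the alternatives, so nothing about the members is read from the larger counts. The median FeO minus FeD difference of -0.13, which includes members at background in these pools, became -0.23 with an offset of 0, -0.21 with processed signals and -0.20 over members above background in both pools. The offset compresses ratios of dim probes by construction, and for the other changes the cause was not tested. Under median centring, no filter, the brightest probe and outlier spots kept, the counts stayed within 1.5 times and the medians within the spread of the 2 arrays.

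With 1 array left out, the FeD median ranged from -0.83 to -0.76 and the members lower by log2 2 in FeD from 1 to 2, since Tff3 was at -1.95 on the array with FeD in Cy5. The methods' t-test on the 2 arrays, added to the size, left 2 of 2 members at log2 2 and 3 of 4 at log2 1 in FeD, and 0 and 1 in FeO, and 0 in all 4 cases after Benjamini-Hochberg adjustment. limma's moderated test with that adjustment left 2 and 4 in each diet. Both tests compare RNA pools by technical error only and use the ratios for which members were in part chosen, so that these counts support nothing about the members. No paired analysis was possible because replicate numbers only name the arrays of a dye swap and each diet is 1 pool.

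The depth of measurement limits Agr2, Muc2 and Spink4, whose FeD or FeO signals were at or near background, and Tff2 in FeO, which rests on 1 array.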
